A study of Mus musculus with 12 samples.

Results

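The Gimap genes were followed through immature thymocytes with and without the zinc finger factors Zfp148 and Zfp281. The 8 rows of the count tables that carry the symbols Gimap1, Gimap3, Gimap4, Gimap5, Gimap6, Gimap7, Gimap8 and Gimap9 were taken, 8 of 53656 gene rows. All 8 of 8 passed the filter on low counts, which kept 13383 genes for testing, so none was lost for low expression.

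GIMAP stands for GTPase of immunity-associated protein. The proteins share a GTP-binding domain of the AIG1 type, most sit on or near intracellular membranes, and they are made mainly by lymphocytes. Their genes lie side by side on the chromosome. In mice and rats, loss of Gimap5 shortens the life of peripheral T cells, and loss of Gimap1 in mice depletes mature T and B cells, so the family is known chiefly for the survival of lymphocytes after they leave the double-positive stage of the thymus.

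RNA was sequenced from sorted mouse thymocytes in 4 groups of 3 libraries each. All animals carried loxP-flanked alleles of both factors (Zfp148 fl/fl; Zfp281 fl/fl). The knockout groups (dKO) also carried Cd4-Cre, a Cre transgene under Cd4 control that acts from the double-positive stage on, and the control groups carried no Cre, so an effect of Cre itself cannot be told apart from the loss of the factors. Immature CD4 cells (ImCD4) were gated as CD44 low, CD4+ CD8-, H2-Kb- and CD69+, and immature CD8 cells (ImCD8) as CD44 low, CD8+ CD4-, TCRb+ and CD69+. The gates therefore differ in more than the lineage, because H2-Kb, a class I molecule that rises with maturation, was used for ImCD4 alone. For the 6 ImCD8 libraries the genotype label is the reverse of the title. The titles were followed, and the levels of the targeted genes went with the titles. The labels give neither the age nor the number of mice, and they do not tie each library to its own mouse, so the p-values below speak to library-to-library spread, which may be technical.

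The libraries held 7315833 to 10943143 counts in genes. Zfp148 fell from 180.2 ± 3.01 to 66.5 ± 3.13 CPM in ImCD4 (counts scaled to a common library size; mean ± SD, n = 3 here and below) and was 165 ± 4.84 in control and 54.9 ± 8.70 in dKO ImCD8. Zfp281 was 486 ± 65.6 in control and 18.6 ± 2.62 in dKO ImCD4, and 119 ± 7.93 against 12.8 ± 2.36 in ImCD8. CD4 lineage markers summed to 1594 to 1911 CPM in the 6 ImCD4 libraries and to at most 19.9 in ImCD8, and CD8 lineage markers to 4514 to 4792 CPM in ImCD8 and at most 294 in ImCD4, so the lineage labels held. Replicate 3 of each group, 4 libraries in all, lay apart from the other 8 on the third principal component (-29.2 to -13.9 against 1.27 to 21.8), and results that rest on these 4 are given without them as well.

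The 8 genes span 123.618 kb of chromosome 6, from 48647234 to 48770851 of mm10 (GRCm38, GENCODE M21). In order along the chromosome they are Gimap8 (48647234 to 48660875, plus strand, ENSMUSG00000064262.7), Gimap9 (48676129 to 48679114, plus, ENSMUSG00000051124.6), Gimap4 (48684549 to 48692060, plus, ENSMUSG00000054435.16) and Gimap6 (48701582 to 48708225, minus, ENSMUSG00000047867.11). These are followed by Gimap7 (48718621 to 48724636, plus, ENSMUSG00000043931.10), Gimap1 (48739054 to 48743795, plus, ENSMUSG00000090019.5), Gimap5 (48746197 to 48754210, plus, ENSMUSG00000043505.8) and Gimap3 (48764464 to 48770851, minus, ENSMUSG00000039264.9). Gimap3 and Gimap5, neighbours that face each other, share 190 of their exonic 50-mers (7.52% of those of Gimap3 and 4.53% of those of Gimap5), and reads from these stretches could be split between them or dropped as not unique. No other pair of members shared a 50-mer.

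Promoter windows are shown for 4 members, those that passed the test in a knockout contrast and the 1 that holds the G-rich motif: Gimap9, the member that fell in dKO ImCD8, Gimap5 and Gimap3, the members that rose in dKO ImCD4, and Gimap8, the only member with a match to the G-rich motif. They are RefSeq sequences of GRCm38.p6, from 250 bases before to 50 bases after the annotated start, written 5′ to 3′ on the gene's own strand. Capitals mark matches to GGGAGGG or GGAAGT on either strand (CCCTCCC and ACTTCC on the other).
Gimap9 promoter window, chr6:48675885-48676184, plus strand: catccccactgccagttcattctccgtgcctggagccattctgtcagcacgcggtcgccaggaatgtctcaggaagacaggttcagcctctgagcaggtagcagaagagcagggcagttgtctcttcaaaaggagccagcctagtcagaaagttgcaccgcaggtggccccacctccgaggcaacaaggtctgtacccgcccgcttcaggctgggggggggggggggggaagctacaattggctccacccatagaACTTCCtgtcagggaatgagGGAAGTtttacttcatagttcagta
Gimap8 promoter window, chr6:48646984-48647283, plus strand: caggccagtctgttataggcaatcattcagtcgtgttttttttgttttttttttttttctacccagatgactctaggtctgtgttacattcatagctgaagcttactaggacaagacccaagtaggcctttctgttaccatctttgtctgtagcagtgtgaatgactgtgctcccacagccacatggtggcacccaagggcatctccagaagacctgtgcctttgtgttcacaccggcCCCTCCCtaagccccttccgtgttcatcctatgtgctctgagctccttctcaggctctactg
Gimap5 promoter window, chr6:48745947-48746246, plus strand: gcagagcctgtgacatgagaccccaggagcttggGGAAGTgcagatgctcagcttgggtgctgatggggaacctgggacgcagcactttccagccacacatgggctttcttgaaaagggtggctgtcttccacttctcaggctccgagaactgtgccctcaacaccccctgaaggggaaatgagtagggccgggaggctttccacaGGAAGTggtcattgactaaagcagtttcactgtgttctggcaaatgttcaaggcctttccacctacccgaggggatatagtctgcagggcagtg
Gimap3 promoter window, chr6:48770802-48771101, minus strand: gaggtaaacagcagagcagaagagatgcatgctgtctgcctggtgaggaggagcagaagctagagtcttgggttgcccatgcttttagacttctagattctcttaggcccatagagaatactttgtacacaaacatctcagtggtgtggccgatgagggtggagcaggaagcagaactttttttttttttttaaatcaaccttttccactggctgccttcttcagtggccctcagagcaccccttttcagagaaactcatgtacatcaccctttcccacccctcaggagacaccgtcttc
GGGAGGG, a G-rich core like those that Zfp148 and Zfp281 are known to bind, was found in the Gimap8 window alone among the 8 genes, on the reverse strand, while 22.0% of all 32851 RefSeq promoter windows of the same length hold it. The longer GGGGAGGGG, which contains GGGAGGG, was found in no member and in 6.37% of all windows. The ETS core GGAAGT was found at 2 places each in the windows of Gimap5 and Gimap9 and at 1 each in those of Gimap1 and Gimap6, against 23.8% of all windows with at least 1. The RUNX motif TGTGGT was found in the windows of Gimap1, Gimap4 and Gimap7, each time on the reverse strand, and in 16.8% of all windows. A match is a description of the letters and no match says only that they are not in this window.

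Per kilobase of exon, Gimap4 had the highest level of the family in all 4 groups, at 391 CPM per kb in control and 394 in dKO ImCD4, and at 318 and 282 in control and dKO ImCD8. Gimap4 is known in rodents for its effect on how fast T cells complete apoptosis. Gimap6, which in other work binds a GABARAP-family autophagy protein, came next in ImCD4 at 205 CPM per kb in control and 224 in dKO. Gimap9 followed in control ImCD4 at 146 CPM per kb, Gimap3 at 79.4 and Gimap8 at 50.8. Gimap1 stood at 34.1, Gimap7 at 19.4 and Gimap5 at 9.07 CPM per kb in control ImCD4. The order was different in control ImCD8. There Gimap3 stood second at 216 CPM per kb, ahead of Gimap6 at 159 and Gimap9 at 72.5, and Gimap8, at 41.3, was below Gimap1 at 62.7 and Gimap7 at 43.9. Gimap5 was lowest in all 4 groups (9.07 to 26.0 CPM per kb). With the longest coding transcript as the length, a choice added after the values were seen, Gimap4 remained highest, but some of the other places changed. On that length Gimap8 stood below Gimap1 already in control ImCD4 (59.5 against 70.2 CPM per kb), and in control ImCD8 Gimap1 stood above Gimap9 (129 against 86.0) and Gimap8 rather than Gimap5 came last. Gimap7 and Gimap8 are close neighbours in this order in control ImCD8 (43.9 ± 4.93 and 41.3 ± 2.57 CPM per kb), within the spread of their libraries. Of the exonic bases of Gimap1, 36.0% overlap another counted gene, the antisense RNA Gimap1os. If counting ignored the strand, reads there would be ambiguous, and the Gimap1 level per kb could be too low.

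**Figure D1:**
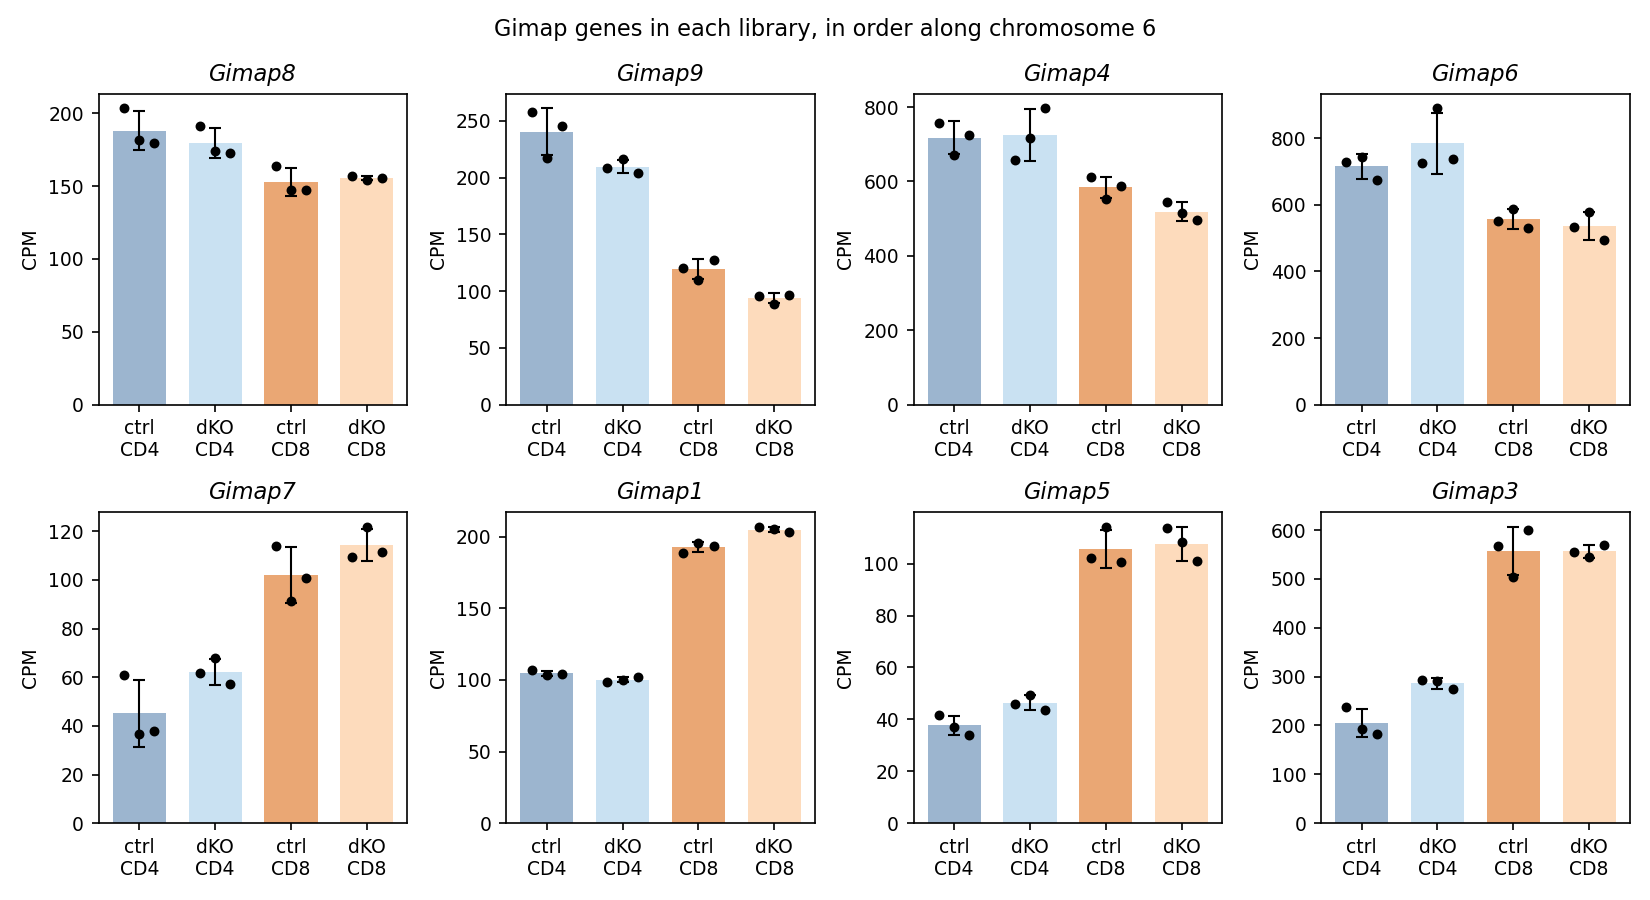
Level of each Gimap gene (CPM, linear axes from 0, a scale for each gene) in each of the 12 libraries, by group (ctrl, control; CD4 and CD8, ImCD4 and ImCD8). Points are libraries, bars group means and error bars ± 1 SD. Gimap3, Gimap5, Gimap1 and Gimap7 are higher in every ImCD8 library than in every ImCD4 library of the same genotype, and Gimap9, Gimap4, Gimap6 and Gimap8 are lower.

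The family's summed level varied less between the groups than its makeup did. The summed CPM of the 8 genes was 2254 ± 121 in control ImCD4, 2392 ± 112 in dKO ImCD4, 2370.3 ± 58.9 in control ImCD8 and 2288 ± 52.1 in dKO ImCD8, and each library gave 0.213% to 0.253% of its gene counts to the family. The 4 genes at the Gimap7 to Gimap3 end held 18.7%, 17.0% and 16.4% of the family's counts in the control ImCD4 libraries and 40.2%, 39.3% and 41.7% in the control ImCD8 libraries. In dKO ImCD4 these shares were 21.9%, 20.3% and 19.95%, and in dKO ImCD8 42.5%, 42.3% and 44.2%. The shares of the ImCD4 libraries lay far below those of the ImCD8 libraries, and in each lineage the lowest dKO library lay above the highest control library. In CPM, the 4 genes together rose from 392 ± 47.6 in control ImCD4 to 958 ± 47.2 in control ImCD8, as the other 4 went from 1862 ± 73.4 to 1412 ± 29.3. These sums describe the libraries and were not tested. The split into these groups of 4 was noticed after the values were seen.

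**Figure D2:**
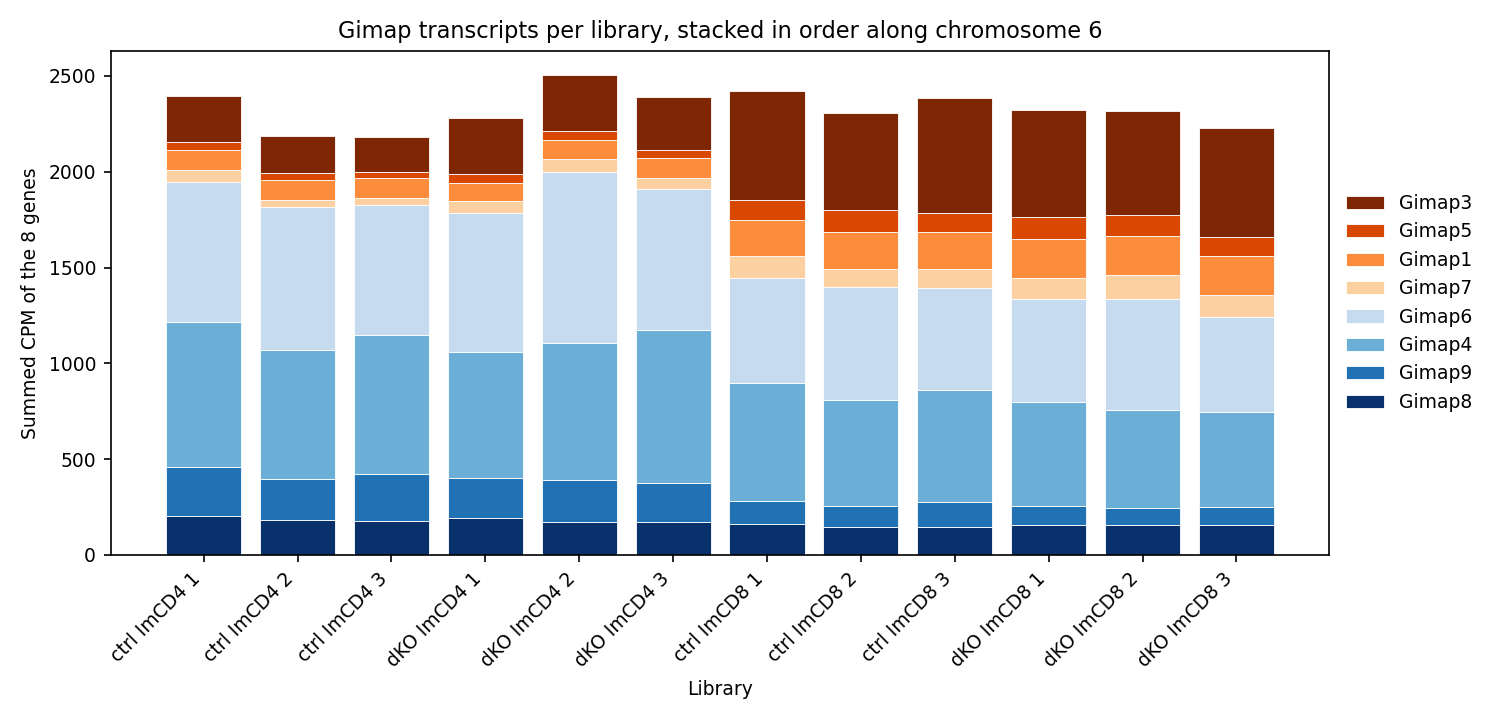
Summed CPM of the 8 Gimap genes in each library (linear axis from 0), stacked in the order of the genes along chromosome 6 with Gimap8 at the bottom and Gimap3 at the top. The bars reach 2184 to 2506 CPM in all 12 libraries, and the upper 4 segments, Gimap7 to Gimap3, take 16.4% to 21.9% of the bar in ImCD4 and 39.3% to 44.2% in ImCD8.

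The comparison of control ImCD8 with control ImCD4 asks how the family differs between the lineages when both factors are present. All 8 members passed the threshold (edgeR quasi-likelihood test, Benjamini-Hochberg adjusted p under 0.05), 4 higher in ImCD8 and 4 lower, and the libraries of both groups did not overlap for any of them. Of all 13383 genes tested, 45.3% passed, 23.1% higher and 22.1% lower, and 56.4% had libraries that did not overlap. The median log2 difference was 0.29 over the members and -0.01 over all genes. In bulk RNA, fewer cells of a type and less RNA per cell cannot be told apart.

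The 4 members that were higher in ImCD8 were those at the Gimap7 to Gimap3 end. Gimap5, which in mice and rats is needed for the survival of naive T cells, stood at 41.7, 37.1 and 34.1 CPM in the control ImCD4 libraries and at 102.2, 114 and 100.5 CPM in the control ImCD8 libraries. It was 2.80-fold higher in ImCD8, a log2 difference of 1.49 ± 0.09 (SE; adjusted p = 2.31e-09). Gimap3, a mouse paralogue of Gimap5 known to affect which mitochondrial DNA is kept in white blood cells, stood at 237.4, 193.5 and 182.9 CPM in control ImCD4 and at 568, 504 and 601 CPM in control ImCD8. Its lowest ImCD8 library was above every ImCD4 library by a wide margin, and it was 2.73-fold higher in ImCD8 (log2 1.45 ± 0.09, adjusted p = 4.26e-09). Gimap7, whose human counterpart stimulates GTP hydrolysis by another family member, stood at 60.9, 36.5 and 38.0 CPM in control ImCD4 and at 114.0, 91.1 and 100.8 in control ImCD8. One ImCD4 library, replicate 1, was well above the other two, yet still below all ImCD8 libraries, and Gimap7 was 2.27-fold higher in ImCD8 (log2 1.18 ± 0.16, adjusted p = 5.51e-05). Gimap1, needed in mice for mature T and B cells, had the tightest libraries, at 106.8, 103.6 and 104.0 CPM in control ImCD4 and 188.6, 195.6 and 193.8 CPM in control ImCD8. It was 1.84-fold higher in ImCD8 (log2 0.88 ± 0.06, adjusted p = 7.01e-09).

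The 4 members that were lower in ImCD8 were those at the Gimap8 to Gimap6 end, and Gimap9 moved furthest. Gimap9 stood at 258, 218 and 246 CPM in control ImCD4 and at 120.3, 109.7 and 127 CPM in control ImCD8. The ImCD8 libraries held about as much Gimap9 as each other and much less than any ImCD4 library, and Gimap9 was 2.02-fold lower in ImCD8 (log2 -1.01 ± 0.08, adjusted p = 3.53e-08). Gimap6 (728, 745 and 674 CPM against 551, 589 and 529), Gimap4 (757, 671 and 725 CPM against 611, 554 and 588) and Gimap8, whose protein carries several GTP-binding domains (203, 182 and 180 CPM against 164, 147 and 147), differed less. Their log2 differences were -0.36 ± 0.09 for Gimap6 (adjusted p = 0.00278), -0.30 ± 0.08 for Gimap4 (adjusted p = 0.00579) and -0.30 ± 0.07 for Gimap8 (adjusted p = 0.00314).

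The antisense RNA Gimap1os, a row of the files inside the cluster that overlaps 36.0% of the exonic bases of Gimap1, went the other way from Gimap1. It stood at 50.7 ± 3.02 CPM in control ImCD4 and 23.0 ± 2.18 in control ImCD8, 2.20-fold lower (log2 -1.14 ± 0.10, adjusted p = 1.06e-07). No source used here says whether counting used the strand, and without it reads of Gimap1 and Gimap1os in the overlap cannot be told apart. A predicted read-through gene of GENCODE M21 also covers parts of Gimap7 (3.48% of exonic bases), Gimap1 and Gimap5 (3.69%), but no row of the counts carries its symbol.

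The dKO ImCD8 libraries, set against dKO ImCD4, gave 4 members higher and 4 lower in the same places along the cluster, where 43.7% of all tested genes passed (22.1% higher, 21.6% lower) and the median log2 difference was 0.34 over the members and 0.00 over all genes. The log2 differences were 0.96 ± 0.09 for Gimap3 (adjusted p = 4.19e-07), 1.21 ± 0.09 for Gimap5 (1.8e-08), 1.04 ± 0.06 for Gimap1 (1.13e-09) and 0.88 ± 0.16 for Gimap7 (0.000502). Those of the other end were -1.16 ± 0.08 for Gimap9 (9.23e-09), -0.55 ± 0.09 for Gimap6 (9.7e-05), -0.48 ± 0.08 for Gimap4 (0.000139) and -0.21 ± 0.07 for Gimap8 (0.0295). No library of dKO ImCD8 overlapped one of dKO ImCD4 for any member, as was the case for 51.8% of all tested genes. The call on Gimap8 was lost without dKO ImCD4 replicate 1 (adjusted p = 0.126) and without dKO ImCD8 replicate 3 (0.0603). It also just missed the threshold without dKO ImCD8 replicate 1. The lineage contrasts share their libraries with the knockout contrasts below, so the values are set side by side only.

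**Figure D3:**
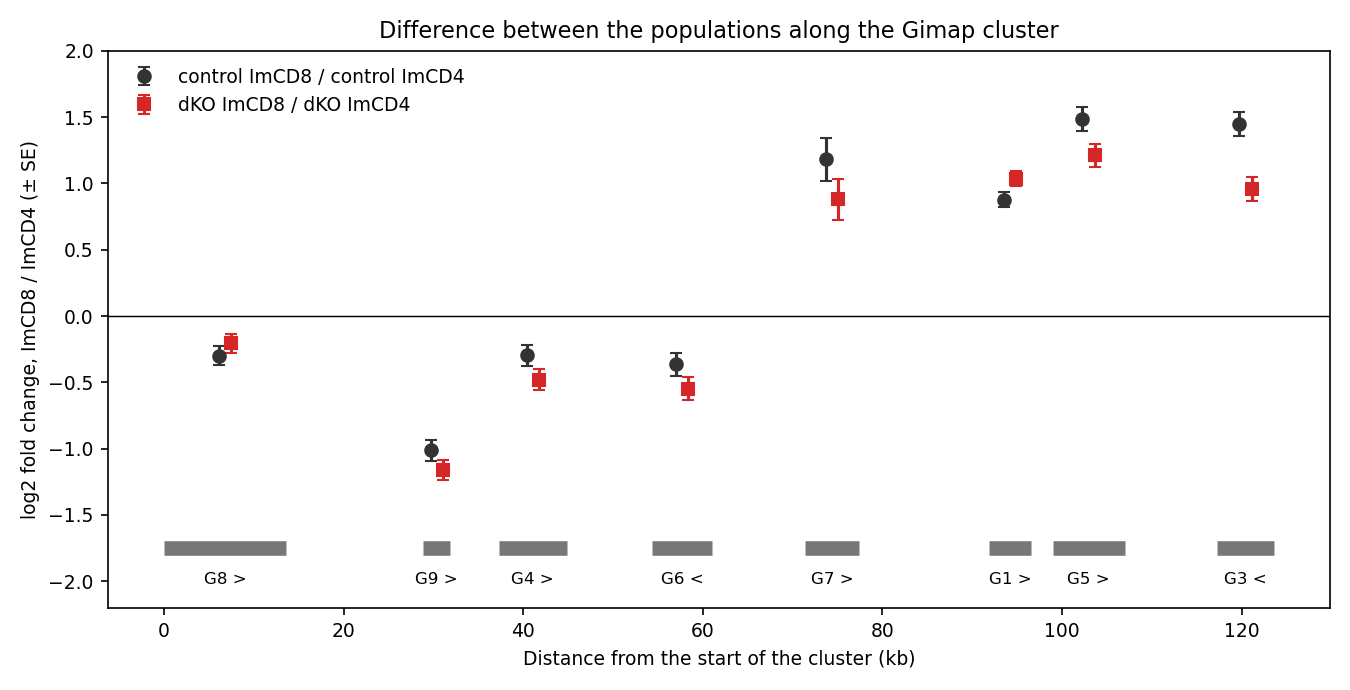
Log2 difference ImCD8 minus ImCD4 of each Gimap gene (vertical axis, error bars ± 1 SE) at the gene's centre, by distance from the start of the cluster in kb, for control (circles) and dKO (squares, set slightly to the right) libraries. Grey bars are the genes, with G8 for Gimap8 and so on and an arrowhead for the strand. Gimap8, Gimap9, Gimap4 and Gimap6 lie below 0 (-1.16 to -0.21) and Gimap7, Gimap1, Gimap5 and Gimap3 above it (0.88 to 1.49) in both genotypes.

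Markers of other cells also differed between the lineages. B cell markers summed to 71.4 to 94.7 CPM in control ImCD4 and to 309 to 401 CPM in control ImCD8, nearly all of it Ighm, with Ms4a1 and Pax5 at 0 in control ImCD8, and 2 of 3 tested markers of 6 were higher in ImCD8. NK cell markers were at most 6.49 CPM in any library, with Ncr1 at 0 in all groups. Endothelial markers summed to 164 to 177 CPM in control ImCD4 and 143 to 164 in control ImCD8, mostly Pecam1, which was the only one of 6 to pass the filter. Markers of myeloid and dendritic cells summed to 66.7 to 75.0 CPM in control ImCD4 and 82.7 to 86.7 in control ImCD8. Nearly all of this was Cst3 (69.8 ± 4.08 and 81.3 ± 2.14 CPM). Markers of thymic epithelium summed to 4.34 to 5.42 and 8.96 to 10.4 CPM, nearly all of it Epcam (4.27 ± 0.337 and 8.93 ± 0.643 CPM). The part of any of these in the Gimap differences was not tested.

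Genes of thymocyte maturation differed between the lineages as well. Of 22 such genes, 14 were higher and 5 lower in control ImCD8, with a median log2 difference of 1.03 over the list. Of all tested genes, 23.1% were higher and 22.1% lower. Klf2, a regulator of thymic exit, was 37.1 ± 5.20 CPM in control ImCD4 and 536 ± 73.5 in control ImCD8 (log2 3.85 ± 0.14, adjusted p = 7.36e-11). H2-K1, which encodes H2-K, the molecule gated against in ImCD4 only, named here for that reason after its values were seen, was 253 ± 4.91 and 2759 ± 226 CPM (log2 3.45 ± 0.09, adjusted p = 3.01e-13). Maturity and lineage therefore cannot be told apart in this contrast.

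The comparison of dKO with control ImCD4 asks what the loss of both factors does to the family in CD4 cells. Gimap3 and Gimap5 rose and the other 6 members did not pass the test, where 13.4% of all 13383 tested genes passed (7.26% higher, 6.16% lower). At an unadjusted p under 0.05, 3 members were higher and 1 lower. The libraries of 4 of the 8 members did not overlap, against 33.8% of all tested genes. The median log2 fold change was 0.07 over the members and 0.02 over all genes.

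Gimap3 stood at 237.4, 193.5 and 182.9 CPM in control and at 293.6, 291.9 and 273.8 CPM in dKO ImCD4. Every dKO library was above every control library, although control replicate 1 lay nearer to the dKO libraries than the other two controls did. The rise was 1.40-fold (log2 0.49 ± 0.09, adjusted p = 0.00225), and Gimap3 passed in all 21 alternative settings, at log2 0.41 to 0.61. In dKO ImCD4 the level of Gimap3, 286 CPM, was still well under that of control ImCD8, 558 ± 49.0 CPM.

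Gimap5 stood at 41.7, 37.1 and 34.1 CPM in control and at 46.0, 49.6 and 43.7 CPM in dKO ImCD4. The groups did not overlap, but the gap between the highest control and the lowest dKO library was small. The rise was 1.24-fold (log2 0.31 ± 0.09, adjusted p = 0.0368). The call was lost in 8 of 21 alternative settings, among them leaving out control replicate 2 (adjusted p = 0.0989) or 3 (0.144), dKO replicate 1 (0.0744) or 2 (0.146), and the 4 libraries that lay apart (0.0781).

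Gimap7 stood at 60.9, 36.5 and 38.0 CPM in control and at 61.6, 67.8 and 57.0 CPM in dKO ImCD4. Control replicate 1 lay among the dKO libraries while the other controls lay below them. Its log2 fold change of 0.46 ± 0.16 missed the threshold (adjusted p = 0.0781), and without control replicate 1 it was 0.74 (adjusted p = 0.000667). With all libraries kept it passed with DESeq2 (adjusted p = 0.0336) and with no filter (5.46e-05), so the call on Gimap7 turned on that library and on the method.

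Gimap9 gave a value in the other direction in ImCD4, at 258, 218 and 246 CPM in control and 208, 216 and 204 CPM in dKO. The groups did not overlap, yet Gimap9 did not pass (log2 -0.20 ± 0.08, adjusted p = 0.0999). Gimap1 also had groups that did not overlap (106.8, 103.6 and 104.0 against 98.4, 99.7 and 102.0 CPM), with a log2 fold change of -0.07 ± 0.06 (adjusted p = 0.501). Gimap4 (718 ± 43.4 and 724 ± 69.7 CPM), Gimap6 (716 ± 36.9 and 785 ± 91.5) and Gimap8 (188 ± 13.2 and 179 ± 10.1) had overlapping libraries, and their log2 fold changes lay from -0.07 to 0.13. The smallest adjusted p among these was 0.346, for Gimap6. Gimap1os, at 50.7 ± 3.02 and 57.3 ± 4.03 CPM, had a log2 fold change of 0.18 ± 0.09 (adjusted p = 0.213).

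Other features differed between the ImCD4 groups too. The control libraries had 8276742 to 9173424 gene counts with 13.6% to 16.4% of reads outside genes, and the dKO libraries 9319732 to 10943143 with 10.5% to 12.9%. In control ImCD4 the gamma-delta T cell markers summed to 29.4 to 32.5 CPM, and in the dKO libraries to 193 to 303 CPM, mostly Sox13 (20.3 ± 1.39 and 218 ± 58.7 CPM), while Trdc, the constant gene of the delta chain, was 9.69 ± 2.17 and 11.3 ± 1.17 CPM. Of 6 such markers 5 were tested, and 2 rose, Sox13 and Tcrg-C1. Tcrg-C1 went from 0.410 ± 0.0813 to 4.01 ± 2.64 CPM (log2 3.24 ± 0.58, adjusted p = 0.00203). Tcrg-C2 did not pass (log2 -0.92 ± 0.74, adjusted p = 0.461). The part of these in the Gimap values was not tested.

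The comparison of dKO with control ImCD8 asks the same of CD8 cells. Gimap9 fell and the other 7 members did not pass, where 6.14% of all tested genes passed (2.62% higher, 3.53% lower). At an unadjusted p under 0.05, 2 members were lower. The libraries of 3 of the 8 members did not overlap, against 21.8% of all tested genes. The median log2 fold change was 0.01 over the members and 0.01 over all genes.

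Gimap9 stood at 120.3, 109.7 and 127 CPM in control and at 95.9, 89.0 and 96.4 CPM in dKO ImCD8. All dKO libraries were below all controls, and Gimap9 was 1.27-fold lower (log2 -0.35 ± 0.08, adjusted p = 0.0137). The call was lost without control replicate 1 (adjusted p = 0.0562), control replicate 3 (0.0676), dKO replicate 2 (0.0553) or the 4 libraries that lay apart (0.0552). Gimap4 also had groups that did not overlap, at 611, 554 and 588 CPM in control and 546, 514 and 496 CPM in dKO, but Gimap4 missed the threshold (log2 -0.17 ± 0.08, adjusted p = 0.251). Gimap1, at 188.6, 195.6 and 193.8 CPM in control and 206.6, 205.4 and 203.0 in dKO, did not overlap either (log2 0.09 ± 0.06, adjusted p = 0.445).

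Gimap3 and Gimap5, the members that rose in dKO ImCD4, did not pass in ImCD8. Gimap3 stood at 568, 504 and 601 CPM in control ImCD8 and at 556, 544 and 569 CPM in dKO ImCD8, with the dKO libraries inside the range of the controls (adjusted p = 0.994, SE 0.09 on the log2 scale). Gimap5 was 106 ± 7.34 CPM in control and 108 ± 6.51 in dKO ImCD8 (log2 0.03 ± 0.08, adjusted p = 0.900). Gimap7 (102 ± 11.5 and 114 ± 6.59 CPM), Gimap6 (556 ± 30.0 and 537 ± 42.2) and Gimap8 (153 ± 9.51 and 156 ± 1.67) had overlapping libraries, with log2 fold changes of -0.05 to 0.16.

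Markers of other cells moved in dKO ImCD8 as well. In control ImCD8 the gamma-delta T cell markers summed to 18.9 to 22.5 CPM, and in dKO ImCD8 to 29.4 to 30.4 CPM, and 1 of 5 tested rose, Cd163l1, from 0.389 ± 0.373 to 5.24 ± 1.48 CPM (log2 3.69 ± 0.51, adjusted p = 0.000253). B cell markers, at 309 to 401 CPM in the controls, summed to 365 to 497 CPM in dKO ImCD8, and 1 of 3 tested rose, Cd79b, by log2 1.32 ± 0.24 (adjusted p = 0.0037). Thymic epithelium markers summed to 8.96 to 10.4 CPM and 12.3 to 22.1 CPM, and the 1 tested, Epcam, rose by log2 0.85 ± 0.21 (adjusted p = 0.0196). Nearly all of both sums was Epcam (8.93 ± 0.643 and 16.1 ± 5.38 CPM). Krt8, the highest of the other epithelium markers, was 0.333 ± 0.199 and 0.279 ± 0.132 CPM. The part of these in the fall of Gimap9 was not tested.

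**Figure D4:**
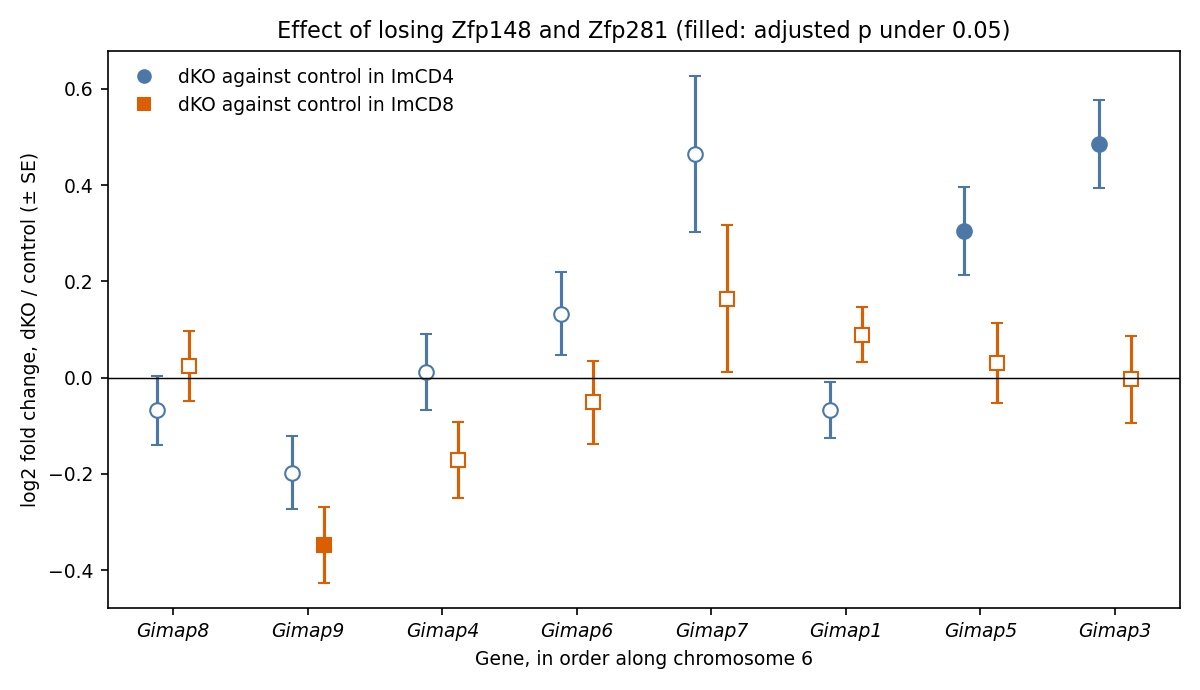
Log2 fold change dKO against control of each Gimap gene, ± 1 SE, in ImCD4 (circles) and in ImCD8 (squares), in order along the chromosome, filled where the adjusted p was under 0.05. In ImCD4 Gimap3 (0.49) and Gimap5 (0.31) passed the test, in ImCD8 Gimap9 (-0.35), and the remaining values lie between -0.20 and 0.46.

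Whether the effect of the knockout differed between the lineages was tested directly as an interaction. No member passed in the main edgeR fit, where 0.433% of all tested genes did (0.179% with a higher and 0.254% with a lower value in ImCD8). At an unadjusted p under 0.05, 2 members, Gimap3 and Gimap5, had a lower value in ImCD8, DESeq2 called 1 and limma-voom 0. The largest difference was that of Gimap3, -0.49 ± 0.13 on the log2 scale (ImCD8 minus ImCD4, unadjusted p = 0.00151, adjusted p = 0.139). It passed with DESeq2 (adjusted p = 0.0398), with no filter (0.00482), with a term for the 4 libraries that lay apart (0.0479) and without control ImCD4 replicate 1 (-0.61, adjusted p = 0.0342). The differences of Gimap5 (-0.27 ± 0.12, adjusted p = 0.484), Gimap7 (-0.30 ± 0.22, 0.698) and Gimap9 (-0.15 ± 0.11, 0.694) did not pass.

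Protein-coding genes on both sides of the cluster were read in the same way. Predicted and clone-named genes were passed over. Of the 5 nearest other tested ones on each side, 5 of 10 passed in dKO ImCD4, where 13.4% of all tested genes did. Zfp467, a zinc finger gene 201 kb before the cluster, fell from 63.1 to 3.34 CPM (log2 -4.24 ± 0.19, adjusted p = 9.46e-10), and Krba1 (log2 -0.38 ± 0.08, adjusted p = 0.00643) and Gpnmb (-1.06 ± 0.21, 0.00339) also fell. Tmem176b and Tmem176a, paired membrane protein genes 63.0 and 70.1 kb after the cluster, rose, from 9.81 to 18.8 CPM (log2 0.95 ± 0.18, adjusted p = 0.00246) and from 6.09 to 9.60 CPM (log2 0.66 ± 0.21, adjusted p = 0.0493). In dKO ImCD8 both rose as well, Tmem176b by log2 1.54 ± 0.20 (adjusted p = 0.000133) and Tmem176a by 1.55 ± 0.23 (adjusted p = 0.000393). The difference between the lineages did not pass for Tmem176b (adjusted p = 0.486) or Tmem176a (0.327). In dKO ImCD8 Zfp467 fell by 3.83 on the log2 scale (SE 0.30, adjusted p = 7.36e-07). Repin1, 48.2 kb before the cluster, rose in ImCD8 (log2 0.63 ± 0.17, adjusted p = 0.0430). Zfp775, the nearest of the 10 on the Gimap8 side at 24.0 kb, did not pass in either knockout contrast. Between the control lineages, 8 of the 10 neighbours were lower in ImCD8 (22.1% of all tested genes were) and 1, Lrrc61, was higher (log2 0.43), so the higher level of Gimap7, Gimap1, Gimap5 and Gimap3 in ImCD8 was not seen in the genes next to them on that side, Tmem176b (log2 -0.86) and Tmem176a (-0.67).

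Known partners of Gimap proteins and survival genes were read as a list. The 17 genes included members of the Bcl-2 family and the autophagy genes of the GABARAP and LC3 families. In dKO ImCD4, 1 fell and 16 did not pass (median log2 fold change 0.01), where 13.4% of all tested genes passed. In dKO ImCD8, 3 fell and 14 did not pass (median -0.04), where 6.14% of all tested genes passed. Gsk3b, a kinase placed downstream of Gimap5 in mouse T cells, fell in both. It was 208 ± 4.45 CPM in control and 134 CPM in dKO ImCD4 (libraries 124 to 147, log2 -0.63 ± 0.07, adjusted p = 3.16e-05), and 156 ± 4.68 against 110.3 ± 5.99 CPM in ImCD8 (log2 -0.50 ± 0.07, adjusted p = 0.000393). In ImCD8 the autophagy receptor Sqstm1 fell from 265 ± 7.93 to 211 ± 6.91 CPM (log2 -0.33 ± 0.07, adjusted p = 0.00874), and Gabarapl1 from 6.74 ± 1.27 to 3.51 ± 0.181 CPM (log2 -0.94 ± 0.22, adjusted p = 0.0168). Gabarap (173 and 181 CPM, adjusted p = 0.755) and Gabarapl2 (94.6 and 95.9 CPM, 0.942), named here after their values were seen, did not pass in ImCD8. Between the control lineages 3 of the 17 were higher and 5 lower in ImCD8, with a median log2 difference of 0.05. Of all tested genes, 45.3% passed in that contrast.

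Among the 22 maturation genes, 6 rose, 3 fell and 13 did not pass in dKO ImCD4 (median log2 fold change 0.26). Of all tested genes, 7.26% rose and 6.16% fell there. The list also holds Rag1, Rag2 and Dntt, which are among the double-positive thymocyte markers. Its counts and median therefore give no direction of maturation. Dntt was among those that rose in dKO ImCD4 (log2 0.79 ± 0.15, adjusted p = 0.00383). Klf2 rose from 37.1 ± 5.20 to 70.2 ± 4.57 CPM (log2 0.92 ± 0.14, adjusted p = 0.000612), Slfn1, linked to T cell quiescence, from 20.3 ± 0.740 to 37.0 ± 5.96 CPM (log2 0.87 ± 0.11, adjusted p = 9.95e-05) and H2-D1, a class I gene, by log2 0.48 ± 0.07 (adjusted p = 0.000498). Ccr7, a chemokine receptor of medullary entry, fell from 608 ± 107 to 288 ± 25.3 CPM (log2 -1.08 ± 0.11, adjusted p = 1.08e-05). In dKO ImCD8, 3 rose and 19 did not pass (median 0.11), where 2.62% of all tested genes rose and 3.53% fell. The 3 were Dntt (log2 1.26 ± 0.15, adjusted p = 0.000204), Slfn1 (0.45 ± 0.09, 0.00753) and Slfn2 (0.32 ± 0.09, 0.0428).

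Distances between the members' profiles were taken within and between the ends of the cluster. The ends were set after the values of these libraries were seen. Larger distances between the ends than within them are therefore built into the split and are no separate result. The root mean square distance between centred log2 profiles over the 12 libraries was 0.140 to 0.446 among Gimap8, Gimap9, Gimap4 and Gimap6, 0.147 to 0.278 among Gimap7, Gimap1, Gimap5 and Gimap3, and 0.608 to 1.24 between the ends. The smallest distance within the second set was that of Gimap5 and Gimap3, which also share sequence. The mean profile of all 8 ran from -0.29 to 0.20. The span was wider at the Gimap8 to Gimap6 end (-0.37 to 0.37) and at the Gimap7 to Gimap3 end (-0.85 to 0.62). The ends moved in opposite directions between the lineages. The named genes nearest to the profile of all 8 were Nrbf2 (distance 0.0639), Tdp1, Snrk, Gsk3a and Nfu1 (0.0676), where the median over 10797 genes was 0.307. Nearest to the Gimap7 to Gimap3 profile, a set chosen after the values were seen, were Fam78a (0.0890), Prex1, Armc7, Tap1 (0.112) and Slc28a2 (0.114), against a median of 0.639. Tap1, a peptide transporter of the class I pathway, stood at 177 and 210.3 CPM in control and dKO ImCD4 and at 402 and 442 CPM in control and dKO ImCD8. Nearest to the Gimap8 to Gimap6 profile were Sipa1l1 (0.0596), Chd1, Tox4, Srsf1 and Dera (0.0691), against a median of 0.368.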

How the data were processed

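Counts of reads per gene were deposited by the authors, 1 table per library, made per the submitters' processing notes with cutadapt 1.18, STAR 2.6.1 and HTSeq on mm10. The annotation and any strand option are not stated in the sources used here. The libraries were made, per the labels' protocols, from low-input RNA with a SMARTer kit. Rows that name no gene were left out of library sizes: reads outside genes were 10.5% to 16.4%, ambiguous reads 5.37% to 5.82% and reads not unique 3.87% to 5.39%. The tables listed 18504 to 20305 genes with a count per library. Symbols were matched to GENCODE M21 (GRCm38), 28534 of 53656 (53.2%), all 8 members among them.

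Counts were tested with edgeR 4.0.16 (R 4.3.3): filterByExpr (minimum count 10, total 15), TMM factors (0.946 to 1.04), 1 fit over 12 libraries in 4 groups with 8 residual degrees of freedom, quasi-likelihood tests and Benjamini-Hochberg adjustment over 13383 genes, called under 0.05. A single gene compared by exact permutation of 3 against 3 libraries could not go below p = 0.1. CPM use TMM sizes, and levels per length the union of exons. Each SE of an edgeR log2 value was the size of that value divided by the square root of its quasi-likelihood F statistic. The scripts were tested on simulated data. Groups came from titles, since the genotype labels of the 6 ImCD8 libraries are the reverse. No libraries of a group agreed within sampling noise (chi-square per degree of freedom 3.84 or more), so none was counted as repeated sequencing of 1 library. Separate preparations from the same mouse could differ by more than sampling noise too, so this check cannot tell them apart.

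The members and lists were chosen with earlier results of these data known. Named were all members, Gimap1os, the 5 nearest tested coding genes on each side, up to 4 called genes per list and knockout contrast, and the 5 genes nearest to the mean profile. Predicted and clone-named genes were passed over in the choice of neighbours and of nearest profiles. Alternatives were RLE or no size factors, DESeq2 1.42.0, limma-voom 3.58.1 with quality weights, other filters, the 6 libraries of a comparison alone, a term for or removal of the 4 libraries apart, and each library left out. Of T cell markers 1 of 5 tested rose in ImCD4, and of double-positive thymocyte markers 1 of 4 rose in each lineage.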

Additional observations from a re-analysis of the deposited data

Results flagged for a closer look

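Among the Gimap genes, targeted factors, neighbours and named list genes, the knockout effect differed between the lineages for Zfp281 and Ccr7. This was by a test of the difference itself, which 58 of all 13383 tested genes passed. Zfp281 fell by 4.71 on the log2 scale in ImCD4 and fell by 3.22 in ImCD8, a difference of 1.49 ± 0.19 (edgeR adjusted p = 0.00170). Zfp281 is itself targeted by the knockout. Its levels were 486 ± 65.6 CPM in control ImCD4 and 119 ± 7.93 in control ImCD8. In dKO ImCD4 and dKO ImCD8 they were 18.6 ± 2.62 and 12.8 ± 2.36 CPM. The part of the unlike control levels in this difference was not tested. Ccr7 fell by 1.08 on the log2 scale in ImCD4 and had a value of -0.23 in ImCD8, a difference of 0.85 ± 0.15 (edgeR adjusted p = 0.0172).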

How the results depend on the processing

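No paired analysis was possible because the labels give the libraries no shared replicate numbers. Replicates are numbered in record order, and the term for the 4 libraries apart, set from the data, pairs none. The 8 calls between the control lineages and the rise of Gimap3 in ImCD4 held in all 21 alternatives run on each. The Gimap genes called in dKO ImCD4 (2) were 1 with library size only, 1 with over 5 CPM in 3 libraries, 1 with the 6 libraries alone, 1 without the 4 libraries apart, 3 with DESeq2 and 1 to 3 with 1 library left out. In dKO ImCD8 (1) there were 0 without the 4 libraries and 0 to 1 with 1 left out. In the difference (0) there was 1 with DESeq2, no filter or a term for the 4 libraries, and 0 to 1 with 1 left out. All genes called in ImCD4 (1797) were 1055 to 1953 with 1 left out. In ImCD8 (822) they were 1280 with no filter, 1420 with the term and 473 to 883 with 1 left out, the lowest without control replicate 1. In the difference (58) they were 140 with DESeq2, 233 with no filter, 106 without the 4 libraries, 200 with the term and 39 to 65 with 1 left out. The summed Gimap level of dKO ImCD8 was 2225 CPM with library size only. Uncalled values near 0 changed sign. For Gimap4 in ImCD4 they were -0.014 with library size only, -0.028 with limma-voom, -0.015 over 5 CPM, -0.00086 with the 6 libraries, -0.055 without the 4 and -0.060 to 0.080 with 1 left out. For Gimap3 in ImCD8 they were 0.0049 with RLE, 0.0048 with DESeq2, 0.011 with no filter, 0.036 without the 4 and -0.070 to 0.053 with 1 left out. For Gimap8 in ImCD8 the value was -0.0028 without the 4, and -0.0024 to 0.078 with 1 left out. For Gimap5 and Gimap6 in ImCD8 the ranges with 1 left out were -0.010 to 0.089 and -0.11 to 0.0034. The longest coding transcript as length raised levels per kb by 1.02 to 2.12 times. The cause of these changes was not tested.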
